A study of Mus musculus with 6 samples.

Results

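Integrins, collagen receptors and focal adhesion proteins were followed as a set of 50 genes in the testes of mice with and without TAp73. The members were taken from a fixed list of integrin chains, discoidin receptors, syndecans, tetraspanins and focal adhesion genes. The rule itself uses no measured value, but the list was chosen with earlier results of these data known. A member was read through array probes whose accession maps to it. Of the 50 members, 48 had such a probe, 46 had a probe that was tested, and 44 had a tested probe with a value on all 6 arrays; the arrays measured 16947 genes in this way. Itga10 and Itgae had no named probe and are not analysed here, while Itgb6 and Fermt1 were well above background on at most 1 array and were not tested. Dag1 and Cd81 each lacked the value of 1 array, so both are described from 5 arrays.

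The groups were 3 male mice with the genotype label TAp73 KO and 3 labelled TAp73 WT, all of strain C57BL/6J and aged 10 weeks. TAp73 is the group of Trp73 products that carry the transactivation domain of p73, a transcription factor of the p53 family. RNA of a whole testis was read on 1 Agilent 1-colour array per mouse, and the labels name no further allele, promoter or Cre driver. In whole testis RNA, fewer cells of a type and less RNA per cell cannot be told apart.

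Integrins are receptors made of an alpha and a beta chain that bind matrix proteins, or ligands on other cells, outside the cell. Inside, talins and kindlins bind the beta chain and switch the receptor on, and the kinases and adaptors of focal adhesions, such as Ptk2, Ilk, paxillin, vinculin and zyxin, link it to actin. In the testis, integrins hold the seminiferous epithelium to its basement membrane and take part in the junctions between Sertoli cells and spermatids. Leukocyte integrins mark the macrophages and dendritic cells of the interstitium.

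The arrays labelled knockout were low for the targeted gene. Levels here are spot signals as a percent of the array's 75th percentile, always in the order of replicates 1, 2 and 3. The Trp73 probe A_55_P1988133 had levels of 6.64, 5.95 and 5.55 in wild type mice against 0.758, 0.687 and 0.527 in knockouts. All 3 of its tested probes fell, with log2 differences of -6.01, -3.21 and -0.99 (limma adjusted p = 0.00369, 0.00213 and 0.0104), and where they lie relative to the deletion was not analysed here. Over all tested probes, arrays of 1 group correlated at 0.987 to 0.996 and arrays of different groups at 0.984 to 0.993. In the authors' value table the genotype labels of these arrays are exchanged, so a fall here would read there as a rise. The markers of spermatids and spermatocytes fixed for this work were measured for 8 of 8 and 6 of 6 genes and those of Sertoli cells for 19 of 19.

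Members changed in 1 direction. Of the 44 measured, 7 fell in the knockout (15.9%), 0 rose and 37 did not pass the test. Over all measured genes 3.53% were called lower and 0.218% higher at the same threshold, a limma adjusted p under 0.05 over 31801 probes. The 7 were the integrin alpha chains Itgax, Itga5, Itga9, Itga6 and Itgav, the collagen receptor Ddr1 and the focal adhesion protein zyxin, Zyx. Before adjustment, 17 members had a p under 0.05 and a lower level (38.6%, against 13.6% of all genes), and 2 had one and a higher level (4.55%, against 12.0%).

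The groups did not overlap, with every knockout below every wild type array, for 18 members (40.9%, against 16.0% of all genes). For 4 members every knockout lay above (9.09%, against 19.2%). The median log2 difference over the 44 was -0.14, beside 0.05 over all measured genes, and 33 of the 44 differences were negative. No member's representative probe was saturated on any array.

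**Figure D1:**
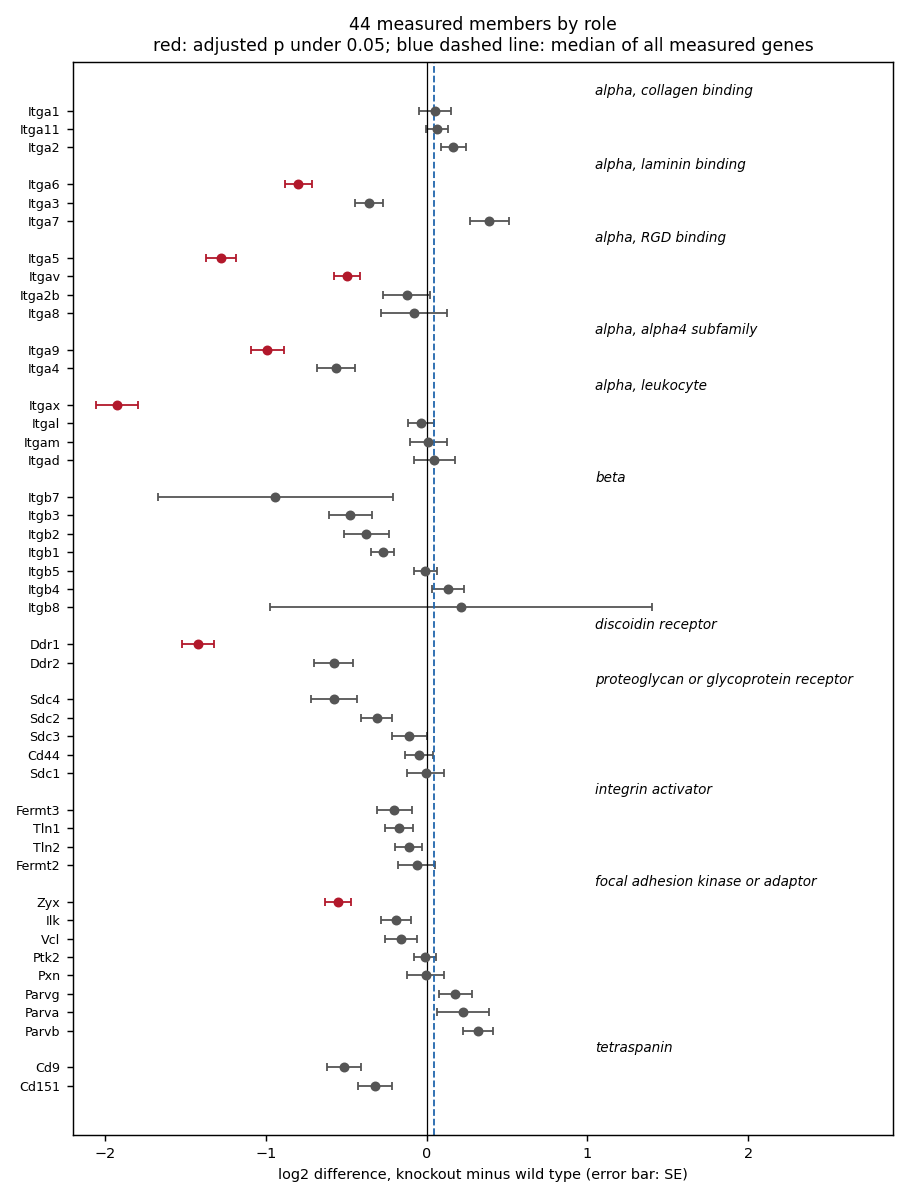
Log2 differences, knockout minus wild type, of the 44 measured members, grouped by role, with SE as error bars (3 arrays per group). The 7 called members, in red, all lie on the left, from -1.93 for Itgax to -0.50 for Itgav, while the highest value is that of Itga7 at 0.39.

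Itgax, the alpha chain of the complement receptor carried by dendritic cells and many macrophages, had the largest fall. Its probe read 6.20, 7.30 and 7.16 in wild type and 1.67, 1.65 and 2.15 in knockout. Every knockout was thus far below every wild type array, with a 3.80-fold fall (log2 difference -1.93, SE 0.131, limma adjusted p = 0.00369). The other alpha chains that pair with Itgb2 on leukocytes did not pass: Itgal, of lymphocytes and other leukocytes, differed by -0.04, Itgam, of myeloid cells, by 0.01 and Itgad by 0.05. Their groups overlapped. The Itgam value comes from a probe with levels of 688 to 892. The dimmer Itgam probes, with levels of only 1.20 to 2.28, differed by 0.22 and -0.20, also with overlapping groups. Which of these probes follows Itgam of myeloid cells was not tested. Itgb2 itself, the shared beta chain of leukocyte integrins, read 8.09, 7.92 and 6.83 in wild type and 6.75, 4.91 and 6.06 in knockout, which left only a narrow gap between the groups. Its difference of -0.38 (SE 0.139) did not pass the test (limma adjusted p = 0.189).

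Some markers of macrophages and dendritic cells fell in the same arrays. Of 17 measured markers 5 were lower (29.4%, against 3.53% of all genes), 0 were higher and 12 did not pass, with a median of -0.43. At an unadjusted limma p under 0.05, 10 were lower (58.8%, against 13.6% of all genes). The 5 included Cd14, a coreceptor for bacterial lipopolysaccharide (-0.72, limma adjusted p = 0.010), the invariant chain Cd74 (-1.11, adjusted p = 0.0124) and the protease cathepsin S, Ctss (-0.87, adjusted p = 0.0148). Among the 12, Cx3cr1 (0.21), Ptprc (0.04), Lyz2 (-0.02) and H2-Ab1 (-0.12) had overlapping groups. The summed level of the 17, as multiples of the 75th percentile, was 6.22 to 7.30 in knockout and 9.19 to 9.89 in wild type. Cd163 and Cd68 were not measured. The part of these cells in the fall of Itgax was not tested.

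Itga5 and Itgav bind ligands with an Arg-Gly-Asp motif; the first is the chain of the fibronectin receptor, the second that of receptors for vitronectin and latent TGF-beta. For Itga5 the levels were 4.20, 4.22 and 3.76 in wild type and 1.75, 1.75 and 1.52 in knockout. The knockouts were all below 2 and the wild types all above 3.7, a 2.43-fold fall (log2 difference -1.28, SE 0.0930, limma adjusted p = 0.00384). Itgav read 5.05, 5.64 and 5.61 against 3.76, 4.02 and 3.76, a smaller step of 1.41-fold with groups that did not overlap (-0.50, SE 0.0791, limma adjusted p = 0.0343). A second, dimmer Itgav probe had overlapping groups and a difference of 0.31 (SE 0.754) that did not pass. Of the other Arg-Gly-Asp binding chains, Itga8, a nephronectin receptor, differed by -0.08 and Itga2b, the platelet fibrinogen receptor chain, by -0.13, neither past the threshold.

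Itga9 and its relative Itga4 form a small subfamily that binds tenascin, osteopontin and VCAM1. Itga9 read 12.7, 11.6 and 10.3 in wild type and 6.05, 5.45 and 5.86 in knockout. Its highest knockout was well under its lowest wild type, a 1.99-fold fall (log2 difference -0.99, SE 0.102, limma adjusted p = 0.0111). The Itga4 groups also did not overlap (1.32, 1.14 and 1.13 against 0.924, 0.723 and 0.787), but its difference of -0.57 missed the threshold (SE 0.118, limma adjusted p = 0.0652). That probe was well above background on 2 of 3 arrays in each group.

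Of 3 laminin binding chains 1 passed (33.3%, against 3.53% of all genes called lower). Itga6, the laminin receptor chain of epithelial basement membranes and of spermatogonial stem cells, read 129, 132 and 125 in wild type and 80.3, 73.9 and 68.9 in knockout. All knockouts lay far under the wild types (1.74-fold, log2 difference -0.80, SE 0.0826, limma adjusted p = 0.0114). Itga3, another epithelial laminin receptor chain, had levels of 2.93, 3.40 and 3.18 against 2.61, 2.32 and 2.48, without overlap, and a difference of -0.36 that missed the threshold (SE 0.0888, adjusted p = 0.0947).

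Itga7, known as the laminin receptor chain of muscle, had the highest difference of all members. It read 91.4, 112 and 115 in wild type and 128, 153 and 135 in knockout. The groups were apart but the difference of 0.39 did not pass (SE 0.121, limma adjusted p = 0.144). Among collagen binding chains, Itga2 (0.17), Itga11 (0.06) and Itga1 (0.05) had small positive differences and none passed, although for Itga2 and Itga11 every knockout lay above every wild type array.

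Among the 7 measured beta chains 0 passed the limma test. At their brightest probes 3 had an unadjusted p under 0.05, all 3 of them lower (42.9%, against 13.6% of all genes). Itgb1, the partner of Itga5, Itga6, Itga9 and most other alpha chains, read 25.0, 27.6 and 26.5 in wild type against 21.8, 21.9 and 21.6 in knockout. The groups did not overlap, but the step was small (-0.27, SE 0.0706, limma adjusted p = 0.102), and a dimmer Itgb1 probe had the other sign (0.27, SE 0.302). Itgb3, a partner of Itgav and Itga2b, read 17.3, 21.0 and 15.5 against 13.8, 11.7 and 13.1 (-0.47, adjusted p = 0.118). Its dimmer probe differed by 0.25 (SE 0.140, limma adjusted p = 0.310). There every knockout lay above every wild type array, the nearest at 1.938 against 1.934. No direction is therefore given for Itgb3.

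Itgb5, which pairs with Itgav, read 228, 228 and 216 in wild type and 234, 216 and 217 in knockout (-0.01, SE 0.0727), and the groups overlapped; its sign changed with median scaling. Itgb4, which pairs with Itga6 in hemidesmosomes, differed by 0.13 (SE 0.0973). No test compared an alpha chain's difference with that of its partner.

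Itgb7 and Itgb8 had the widest spread. Itgb7, of intestinal lymphocyte integrins, read 3.56, 4.03 and 3.69 in wild type and 0.553, 3.76 and 3.59 in knockout, so its difference of -0.94 (SE 0.731) came from knockout replicate 1. Without that array it was -0.03. Itgb8, an activator of latent TGF-beta with Itgav, was well above background on 2 knockout arrays and 1 wild type array, with levels from 0.184 to 2.20, and its sign changed with the array left out.

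**Figure D2:**
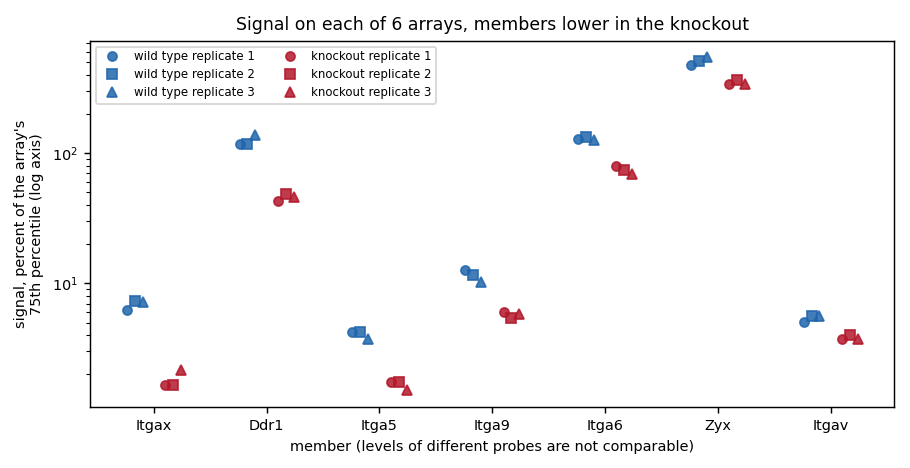
Signal of the 7 called members on each of the 6 arrays, as a percent of the array's 75th percentile on a log axis, with wild type in blue, knockout in red and 1 symbol per replicate number. For each member all 3 knockout points lie below all 3 wild type points, most widely for Itgax (1.65 to 2.15 against 6.20 to 7.30).

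Collagen is also bound by the discoidin receptors, which are receptor tyrosine kinases. Ddr1, the epithelial one, read 116, 117 and 138 in wild type and 43.0, 48.7 and 46.3 in knockout. No knockout came near a wild type (2.69-fold lower, log2 difference -1.43, SE 0.0997, limma adjusted p = 0.00369). Ddr2, the receptor of mesenchymal cells, had levels of 15.4, 19.6 and 20.3 against 11.9, 12.1 and 12.9. These did not overlap, and the difference of -0.58 missed the threshold (SE 0.122, adjusted p = 0.066) but was called without wild type replicate 1 (-0.70, adjusted p = 0.0345). A second Ddr2 probe gave -0.50 (adjusted p = 0.107).

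Syndecans are heparan sulphate proteoglycans that act beside integrins, and 0 of 5 measured proteoglycan or glycoprotein receptors passed in limma. Before adjustment 2 of the 5 were lower at p under 0.05 (40%, against 13.6% of all genes). Sdc4, the syndecan of focal adhesions, read 15.1, 21.5 and 17.5 in wild type and 13.0, 11.2 and 11.8 in knockout (-0.58, SE 0.142, adjusted p = 0.0935). Sdc2 had levels of 19.1, 20.8 and 19.3 against 17.8, 14.5 and 15.6 (-0.31, SE 0.0974, adjusted p = 0.146). In both the groups did not overlap. Sdc3 (-0.11), the hyaluronan receptor Cd44 (-0.05) and Sdc1 (-0.01) had overlapping groups, and Dag1, the laminin receptor dystroglycan, differed by -0.26 over 5 arrays (SE 0.149).

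Tetraspanins gather integrins into membrane domains. Cd9, needed on the egg for sperm fusion and also present on spermatogonia, read 27.0, 26.0 and 29.4 in wild type and 19.2, 21.4 and 17.2 in knockout. The groups were apart, and the difference of -0.52 missed the threshold (SE 0.104, limma adjusted p = 0.0622). Cd151, a binder of laminin receptors, had levels of 568, 690 and 676 against 537, 475 and 531 (-0.32, SE 0.105, adjusted p = 0.154), and Cd81 differed by -0.40 over 5 arrays (SE 0.0994, adjusted p = 0.109).

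Inside the cell, 1 of 12 measured activators, kinases and adaptors passed, zyxin, where 3.53% of all genes were called lower. Zyx, a LIM protein of mature, tension bearing adhesions, read 474, 507 and 544 in wild type and 337, 362 and 342 in knockout. The groups lay well apart (1.46-fold lower, log2 difference -0.55, SE 0.0813, limma adjusted p = 0.0282). The talins, which activate integrins, differed by -0.17 for Tln1 (SE 0.0882) and -0.11 for Tln2 (SE 0.0839), with overlapping groups. A dimmer Tln1 probe had the other sign (0.08, SE 0.217). The kindlins, which help the talins, differed by -0.20 for Fermt3 of blood cells (SE 0.107) and by -0.06 for Fermt2 (SE 0.118), and neither passed. A second Fermt2 probe read 22.9, 25.0 and 25.6 against 18.7, 19.1 and 18.7, without overlap (-0.38, adjusted p = 0.0587).

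The focal adhesion kinase Ptk2 read 42.6, 42.7 and 41.7 in wild type and 40.0, 43.5 and 42.5 in knockout, and the groups overlapped (-0.01, SE 0.0692). Its substrate paxillin, Pxn, also differed by -0.01 (SE 0.114), both with a sign that changed under median scaling. The actin linker vinculin, Vcl, differed by -0.16 (SE 0.101). A second, slightly dimmer Vcl probe differed by 0.20 (SE 0.0885, limma adjusted p = 0.234), with every knockout above every wild type array. No direction is therefore given for Vcl. Ilk, the pseudokinase that joins beta chains to parvins, read 187, 190 and 214 in wild type and 158, 182 and 179 in knockout, apart but not past the threshold (-0.19, SE 0.0940, adjusted p = 0.267). The parvins had positive differences at their brightest probes. Parvb reached 0.32 (SE 0.0933, adjusted p = 0.126), with 3.03, 2.75 and 3.30 in wild type and 3.98, 3.72 and 3.62 in knockout, Parva 0.23 and Parvg, of blood cells, 0.18. Dimmer probes of Parvb (-0.17) and Parva (-0.36 and -0.28) had the other sign, so no direction is given for these 2 genes.

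Probes of 1 gene often disagreed in sign. Of 15 members with several tested probes, 6 had the same sign on all of them and 9 did not. Among the called members only Itgav had a second tested probe. The 3 Itgam probes differed by 0.01, 0.22 and -0.20, and none of the 3 passed.

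RefSeq promoters (GRCm38.p6) were held for 37 members, 6 of them called. The 250 bases before the start were searched on both strands for the p53 family half-site and for GGGCGG (a GC box), GAGGAA (the core of a PU.1 site) and TGANTCA (an AP-1 site). A match describes the letters and shows no binding. Shown are 4 promoters of called members, each with matches that another lacks. Matches are in capitals and do not overlap in them.
Itgax, chr7:128129300-128129549, plus strand: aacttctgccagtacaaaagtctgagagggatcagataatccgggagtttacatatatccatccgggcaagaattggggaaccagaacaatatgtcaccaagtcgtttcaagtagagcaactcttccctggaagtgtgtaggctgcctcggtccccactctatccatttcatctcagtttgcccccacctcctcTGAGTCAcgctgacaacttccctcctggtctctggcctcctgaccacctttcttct
Itga9, chr9:118711442-118711691, plus strand: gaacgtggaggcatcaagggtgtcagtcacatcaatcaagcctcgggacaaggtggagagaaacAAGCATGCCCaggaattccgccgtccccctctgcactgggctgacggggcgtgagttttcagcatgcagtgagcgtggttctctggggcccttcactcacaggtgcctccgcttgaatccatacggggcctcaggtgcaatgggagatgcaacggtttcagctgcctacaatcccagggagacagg
Itga5, chr15:103366792-103367041, minus strand: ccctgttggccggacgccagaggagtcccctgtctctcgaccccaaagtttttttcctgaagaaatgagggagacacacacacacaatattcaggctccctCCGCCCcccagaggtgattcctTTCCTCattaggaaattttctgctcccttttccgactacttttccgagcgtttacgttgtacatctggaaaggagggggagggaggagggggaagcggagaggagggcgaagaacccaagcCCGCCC
Zyx, chr6:42349578-42349827, plus strand: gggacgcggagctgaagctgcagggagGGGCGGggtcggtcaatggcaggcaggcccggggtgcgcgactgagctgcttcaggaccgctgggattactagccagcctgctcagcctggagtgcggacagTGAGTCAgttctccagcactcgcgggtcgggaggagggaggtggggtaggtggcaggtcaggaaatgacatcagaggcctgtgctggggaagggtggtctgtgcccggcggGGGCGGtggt

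Itga9 was 1 of 2 member genes with a p53 family half-site in this window, the other being Cd151. The half-site stood in 2 of 46 member promoters and in 7.1% of all 32851. TGANTCA stood in 3 of 46 member promoters and in 6.7% of all, so members were near the share of all promoters. The 3 were promoters of the called genes Itgax, Zyx and Ddr1 (1 of its 4 promoters), and no conclusion about called members is drawn from them. GGGCGG stood in 25 of 46 member promoters and in 32.7% of all, and GAGGAA in 12 of 46 and in 23.3%. The median GC content of the window was 61.2% in member promoters and 52.4% in all, and its part in these shares was not tested. Itga6 is not in the promoter table.

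Ligands of these receptors were followed as a list of 47 matrix proteins and cell surface ligands. Of 43 measured, 2 fell (4.65%, against 3.53% of all genes), 0 rose and 41 did not pass, with a median of -0.21. Lamb2, the laminin beta chain of specialised basement membranes, read 77.7, 64.2 and 66.9 in wild type and 37.9, 40.0 and 39.6 in knockout, with no overlap (1.77-fold, -0.82, limma adjusted p = 0.0142). The matricellular protein thrombospondin 1, Thbs1, had levels of 10.0, 11.2 and 12.1 against 8.10, 7.59 and 6.97 (-0.56, adjusted p = 0.0489). Just outside the threshold, and chosen after their values were seen, were the laminin gamma chains Lamc1 (-0.58, adjusted p = 0.0513) and Lamc3 (-0.50, adjusted p = 0.0547). Leaving out 1 array gave 0 calls without knockout replicate 2 or 3 or wild type replicate 2 or 3. It gave 2 without knockout replicate 1 and 3 without wild type replicate 1. In these settings limma gave 8 to 14 ligands lower at p under 0.05 before adjustment. Of all genes, 0.472% to 1.80% were called lower there. As reported, 12 of the 43 were lower before adjustment in limma (27.9%, against 13.6% of all genes).

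Of 60 other kinases, adaptors and actin linkers of integrin signalling, 57 were measured. Among the 57, 4 fell (7.02%, against 3.53% of all genes), 0 rose and 53 did not pass, with a median of -0.15. Trip6, a LIM protein of the zyxin family, read 77.4, 78.7 and 71.0 in wild type and 43.8, 39.5 and 39.9 in knockout. Every knockout lay below every wild type array (-0.88, limma adjusted p = 0.00803). Lpp, another LIM protein of that family named here after its value was seen, differed by -0.34 and did not pass (adjusted p = 0.156). The tensin Tns3, an actin linker that binds beta chain tails, had levels of 76.7, 76.5 and 79.1 against 40.2, 49.7 and 41.9 (-0.82, adjusted p = 0.0156). The others were the Cas family scaffold Nedd9 (-0.57, adjusted p = 0.0489) and the Rac exchange factor Dock1 (-0.39, adjusted p = 0.0495), both close to the threshold. The count was 2 without knockout replicate 1 or wild type replicate 1, and 1 without knockout replicate 2 or wild type replicate 3. It was 0 without knockout replicate 3 or wild type replicate 2. In these settings limma gave 13 to 20 genes lower at p under 0.05 before adjustment. Of all genes, 0.472% to 1.80% were called lower there. As reported, 17 of the 57 were lower before adjustment in limma (29.8%, against 13.6% of all genes).

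Markers of some cell types fell in the same arrays as the members, and other marker lists had 0 called. Over all measured genes, 3.53% were called lower and 0.218% higher. At an unadjusted limma p under 0.05 these shares were 13.6% and 12.0%. Of 19 Sertoli cell markers 4 fell (21.1%) and 0 rose (median -0.43). The 4 included Sox9, a transcription factor of Sertoli cells (-0.64, limma adjusted p = 0.0186), and the intermediate filament protein Vim (-0.58, adjusted p = 0.028). For 13 of the 19 (68.4%, against 16.0% of all genes) every knockout lay below every wild type array. For 2 of the 19 (10.5%, against 19.2% of all genes) every knockout lay above. The summed level of the 15 markers saturated on no array was 27.9 to 29.0 times the 75th percentile in knockout and 38.1 to 40.2 in wild type, a sum chosen after seeing the data. With the 4 markers saturated on at least 1 array it was 80.0 to 90.3 against 85.3 to 90.9. Of 8 endothelial markers 2 fell (25%), Robo4 (-2.80, limma adjusted p = 0.00369) and Ly6c1 (-0.67, adjusted p = 0.0248), with a list median of -0.19. The summed level of the 8 was 3.27 to 3.67 against 4.44 to 4.78. Robo4 alone read 74.8, 82.5 and 109 in wild type and 14.4, 13.3 and 10.3 in knockout. Kdr (0.08), Tie1 (0.02) and Tek (-0.01) had overlapping groups. Of 8 peritubular myoid markers 1 fell (12.5%), with a list median of -0.04. Before adjustment limma gave 1 of the 8 lower (12.5%) and 2 higher (25%). Their sum was 19.3 to 20.1 against 19.1 to 23.9 without 1 saturated marker, and 33.7 to 36.9 against 30.8 to 35.7 with it. Of 8 Leydig cell markers 2 fell (25%), with a list median of -0.30. Before adjustment limma gave 3 of the 8 lower (37.5%) and 1 higher (12.5%). Their sum was 13.5 to 23.7 against 18.6 to 29.5. Spermatocyte and spermatid markers had medians of 0.21 and 0.26 with 0 called. Before adjustment limma gave 3 higher (50% and 37.5%) and 0 lower in each list. Of 8 spermatid probes, 7 were saturated on at least 1 array. Of 4 measured red cell and platelet markers 1 fell (25%), the platelet glycoprotein gene Gp1bb (-0.97, limma adjusted p = 0.00824). The list median was -0.53, and the summed level was 3.78 to 5.96 in knockout against 5.83 to 7.41 in wild type. Spermatogonial markers had 0 of 8 called and a median of -0.12. Before adjustment limma gave 2 of the 8 lower (25%) and 1 higher (12.5%). Of 4 epididymal and 2 lymphocyte or neutrophil markers, 0 were called (limma, with 0 before adjustment). Of the last list Cd3g, Cd79a, Ncr1, S100a8 and S100a9 were not measured. The part of these cells in the members' differences was not tested.

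**Figure D3:**
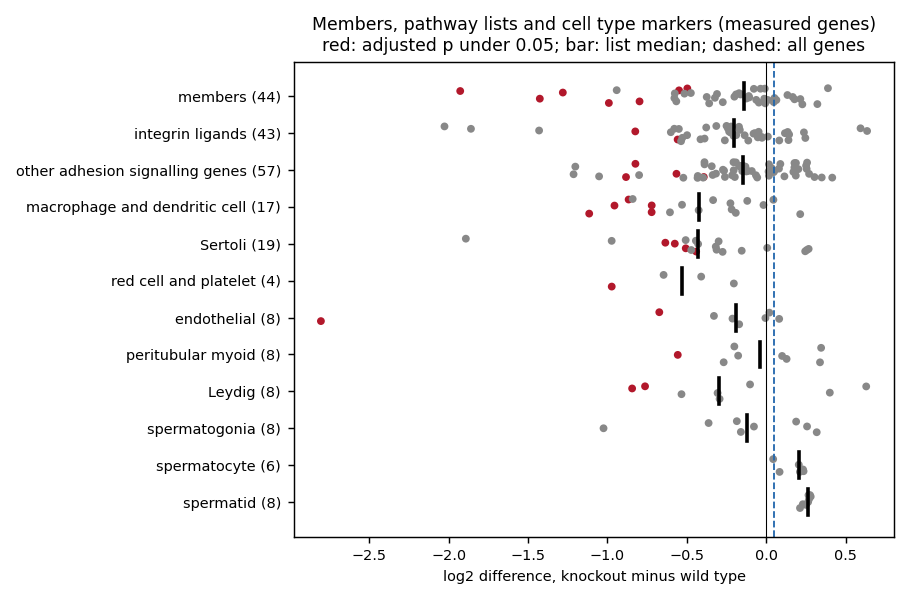
Log2 differences, knockout minus wild type, of the measured members, 2 pathway lists and the cell type markers, with a point per gene, red where called, and a bar at each list's median. The members' median of -0.14 lies between those of macrophage and Sertoli markers (both -0.43) and those of spermatocyte and spermatid markers (0.21 and 0.26). The other lists shown have medians from -0.53 (red cell and platelet) to -0.04 (peritubular myoid).

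The calls did not all hold equally. Itgax, Itga5 and Ddr1 were called whichever 1 of the 6 arrays was left out. Itga6 and Itga9 were lost without knockout replicate 2 or 3 or wild type replicate 2 (adjusted p of 0.0544 to 0.0712). Zyx was called only without wild type replicate 1 among these settings, and Itgav in none of them. Members lower numbered 3 without knockout replicate 2 (where 0.484% of all genes were lower), knockout replicate 3 (0.584%) or wild type replicate 2 (0.472%). They numbered 5 without knockout replicate 1 (1.80%) or wild type replicate 3 (0.915%), and 7 without wild type replicate 1 (1.78%).

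The arrays lay on 2 slides, with 2 knockouts and 2 wild types on the first and 1 of each on the second. With slide as a block 5 members were lower, where 1.27% of all genes were; Itgav (adjusted p = 0.0802) and Zyx (adjusted p = 0.0722) were lost. Itgax differed by -2.01 within slide 1 and -1.77 in the slide 2 pair, Itga5 by -1.18 and -1.47, and Ddr1 by -1.47 and -1.33. Itga9 differed by -0.99 on both slides, Itga6 by -0.73 and -0.94, Zyx by -0.54 and -0.57, and Itgav by -0.45 and -0.59. Within slide 1, with 2 arrays per group, 0 members and 0% of all genes were called by limma. Before adjustment 11 of 44 members were lower at p under 0.05, beside 1809 of 31698 tested probes.

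Another background correction, normexp on the raw signals, left 0 members and 0% of all genes called by limma. Before adjustment 3 of 44 members were lower at p under 0.05, beside 810 of 31801 tested probes. Under normexp Ddr1 differed by -1.32, Itga6 by -0.75 and Zyx by -0.57, values close to those reported. Itgax differed by -0.66, Itga9 by -0.46, Itga5 by -0.08 and Itgav by 0.07, so these 4 moved toward 0 or past it. As reported, these 4 had knockout spot signals of 66.5 to 312, while Ddr1, Itga6 and Zyx had 2015 to 17391. The median of all tested probes was 0.22 under normexp and 0.06 as reported. The cause was not tested.

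Members lower numbered 7 under quantile normalization (3.64% of all genes lower), median scaling (2.40%) and with saturated spots missing (3.85%), 5 without a filter on dim probes (1.27%) and 9 where probes had to be well above background on all 6 arrays (4.95%). With the replicate number as a block 0 were called by limma (0.0177% of all genes). Before adjustment 17 of 44 members were lower at p under 0.05, beside 3162 of 31801 tested probes. In the authors' value table, under its own labels, 7 members were called higher (3.68% of all genes).

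**Figure D4:**
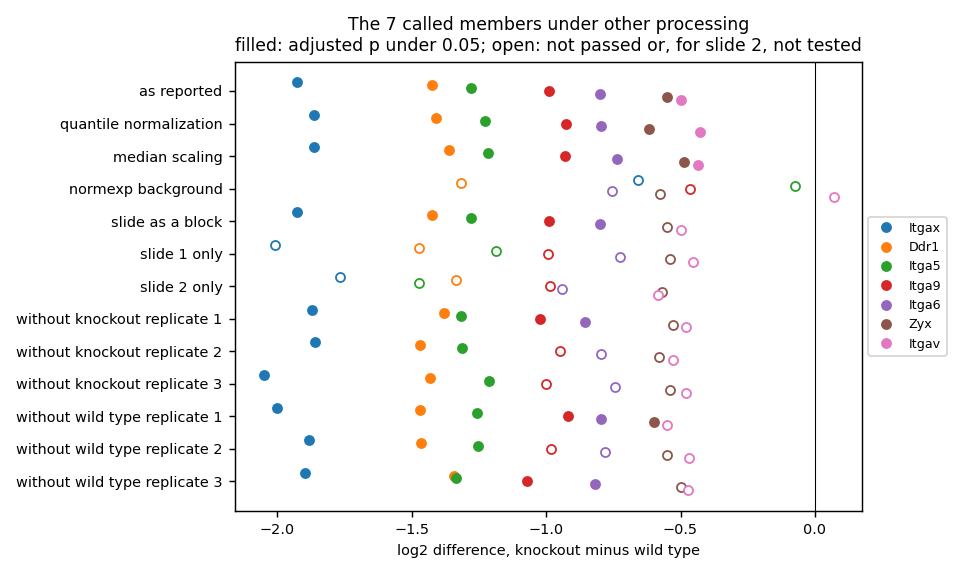
Log2 differences, knockout minus wild type, of the 7 called members as reported and under 12 other settings, with filled points for an adjusted p under 0.05 and open points otherwise; the slide 2 pair has no test. All points lie left of 0 except that of Itgav under normexp, at 0.07.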

How the data were processed

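Members and lists were chosen with earlier results of these data known. Per the file headers, the authors made the scanner files with Feature Extraction 10.7.3.1 on a design built on mm9; the deposited values are linear spot intensity, already background-subtracted in the column used. The submitters' processing notes name limma. The authors' deposited value table, also linear intensity, was made in a way not given in the sources used here and its columns follow scanner files of the opposite genotype label (r = 0.831 to 0.986); scanner file labels were used.

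Control spots and flagged outlier spots (163 to 280 per array) were left out. Spots of a probe were averaged as log2 signal, less the array's 75th percentile. Tested probes were those well above background on at least 3 of 6 arrays with at least 2 values per group (31801 of 39429 probes; 26055 were named through RefSeq accessions). Each gene is given by the brightest tested probe that has all 6 values. Limma 3.58.1 in R 4.3.3 (lmFit, eBayes, two-sided, genotype alone in the model) was adjusted over all tested probes by Benjamini-Hochberg; adjusted p-values come from it except where a setting is given, and it was tested on simulated data. Named were called members, members whose groups did not overlap at an unadjusted p under 0.05, partners of called chains and the extremes of each role. Called genes of the pathway lists, up to 3 called markers per list and Trp73 were also named. Markers that did not pass were named after their values were seen. The planned mean spot signal column was replaced by the median one in normexp (offset 50). Between 74.4% and 84.4% of probes per array were well above background. The number of arrays limits the precision, and an exact permutation test of 3 against 3 cannot go below p = 0.1. Alternatives were other background, scaling, filter, saturation, slide and replicate settings, the value table and leaving out each array.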

Additional observations from a re-analysis of the deposited data

How the results depend on the processing

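The fall of 7 members was the same under quantile normalization, median scaling and with saturated spots missing. It became 0 under normexp, within slide 1 and with the replicate block. Before adjustment limma gave 3, 11 and 17 members lower there, beside 810 of 31801, 1809 of 31698 and 3162 of 31801 tested probes. The value table has exchanged genotype labels, so a fall here reads there as a rise. Under its own labels it gave 7 members higher and 0 lower. Before adjustment limma gave 4 members lower there, beside 3725 of 31801 tested probes. Leaving out 1 array gave 3 to 7. The median over members was 0.067 under normexp and 0.12 in that table, and -0.22 to -0.14 with 1 array left out. Of the called members Itgav changed sign, to 0.069 under normexp. Members that had not passed also changed sign, and passed in none of these settings. Under normexp these were Itga2b at 0.77, Itga4 at 0.60, Fermt3 at 0.48, Itgal at 0.39, Itgb7 at 0.36, Itga3 at 0.33, Tln2 at 0.32, Cd44 at 0.28, Pxn at 0.25, Sdc1 at 0.20, Itga8 at 0.15, Fermt2 at 0.092, Sdc3 at 0.087, Ptk2 at 0.062, Itgb2 at 0.053 and Itgam at -0.0058. Under median scaling they were Sdc1 and Pxn at 0.056, Itgb5 at 0.053, Ptk2 at 0.050, Itgal at 0.026 and Cd44 at 0.016. Under quantile normalization they were Sdc1 at 0.058, Pxn at 0.055, Itgal at 0.040, Ptk2 at 0.030, Cd44 at 0.027 and Itgam at -0.10. Within slide 1 they were Pxn at 0.14, Sdc1 at 0.13, Itgb5 at 0.020 and Itgb8 at -1.17. With 1 array left out the range spanned 0 for Cd44 (-0.10 to 0.0082), Fermt2 (-0.16 to 0.0032), Itga1 (-0.028 to 0.11), Itga2b (-0.26 to 0.025), Itga8 (-0.28 to 0.12), Itgad (-0.052 to 0.15), Itgal (-0.075 to 0.0094), Itgam (-0.10 to 0.084), Itgb5 (-0.048 to 0.013), Itgb8 (-0.67 to 1.36), Ptk2 (-0.039 to 0.022), Pxn (-0.10 to 0.078) and Sdc1 (-0.094 to 0.11). Integrin ligands lower, 2 as reported, were 0 under normexp, within slide 1 and with the replicate block, 1 with median scaling, without a filter and with slide as a block, and 5 where probes had to be well above background on all 6 arrays, with 0 to 3 when 1 array was left out. Other adhesion signalling genes lower, 4 as reported, were 0 under normexp, within slide 1 and with the replicate block and 2 under quantile normalization, median scaling, no filter and slide as a block, with 0 to 2 when 1 array was left out. The cause was not tested. The labels do not say whether replicate numbers pair the mice. Deviations of same-numbered arrays correlated at -0.0252, -0.0817 and -0.0899, which gave no sign of pairing but cannot settle it. The replicate block left 9 lower and 1 higher of all probes. The strict filter also called Ddr2 (adjusted p = 0.0486) and Cd9 (adjusted p = 0.0447). Dim members, such as Itga4 and Itgb8, are limited by signal over background. Of the called members, Itga5 and Itgax were also dim in the knockouts, with spot signals of 66.5 to 90.2 and 68.2 to 93.9. Both were well above background on all 6 arrays. The slide 2 pair, with 1 array per group, gives no count of calls.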
